A study of Mus musculus with 6 samples.

Results

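The cells described here are the principal cells of the cortical collecting duct (CCD principal), a class of the authors' annotation of single mouse kidney cells. Membership was read from the annotation's column of 15 broad classes, and 1225 of 22154 cells carried the name. All mice were wild type (WT), of the C57BL/6 strain and 16 weeks old, and their gel diet held 104 µmol sodium per kcal. For 1 week, 3 samples received furosemide at 70 mg/kg in that diet and 3 received the diet as vehicle. Furosemide blocks Slc12a1, the salt cotransporter of the thick ascending limb, which lies upstream of these cells. Furosemide libraries 2, 4 and 6 held 180, 368 and 136 CCD principal cells, and vehicle libraries 1, 3 and 5 held 220, 190 and 131. Libraries are named by the number in the annotation. No label says whether a sample came from a single animal, so p-values measure the spread between libraries.

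Principal cells of the collecting duct reabsorb sodium through the epithelial sodium channel (ENaC) and secrete potassium through apical channels, under the control of aldosterone. The enzyme 11-beta-hydroxysteroid dehydrogenase (Hsd11b2) inactivates glucocorticoids in these cells and so keeps the mineralocorticoid receptor open to aldosterone. Vasopressin places the water channel aquaporin 2 (Aqp2) in their apical membrane. Intercalated cells, which move acid and base, lie between them, and the connecting tubule lies just upstream.

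The 5 markers of the class were Aqp2, the ENaC subunits Scnn1b and Scnn1g, Hsd11b2, and Fxyd4, a small regulator of the sodium pump. Promoter windows of 300 bases, from 250 before to 50 after the gene's start, were held for 4 of these 5 in the RefSeq table of build GRCm38.p6. They are shown because Aqp2 is the vasopressin-regulated member and because Scnn1g and Fxyd4 stood on opposite sides of vehicle in the treatment comparison below. Aqp2 lies at chr15:99578806-99579105 on the plus strand, Scnn1g at chr7:121734229-121734528 on the plus strand and Fxyd4 at chr6:117937286-117937585 on the minus strand. Capitals mark matches to 3 short words that were searched on both strands. The first was TGACGTC, the cAMP response element less its last base. The others were AGATAA, which GATA factors are known to bind, and AGAACA, a steroid receptor half-site.
Aqp2: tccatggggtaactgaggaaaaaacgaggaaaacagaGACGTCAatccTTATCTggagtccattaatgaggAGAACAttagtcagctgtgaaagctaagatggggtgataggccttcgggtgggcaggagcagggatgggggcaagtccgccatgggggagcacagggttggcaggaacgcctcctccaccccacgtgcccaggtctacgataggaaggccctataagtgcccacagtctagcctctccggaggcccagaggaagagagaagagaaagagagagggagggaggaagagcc
Scnn1g: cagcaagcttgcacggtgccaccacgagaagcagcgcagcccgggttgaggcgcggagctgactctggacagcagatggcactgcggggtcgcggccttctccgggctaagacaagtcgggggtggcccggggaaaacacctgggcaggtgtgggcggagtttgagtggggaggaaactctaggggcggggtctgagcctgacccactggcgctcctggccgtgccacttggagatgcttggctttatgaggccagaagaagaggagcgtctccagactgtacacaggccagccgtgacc
Fxyd4: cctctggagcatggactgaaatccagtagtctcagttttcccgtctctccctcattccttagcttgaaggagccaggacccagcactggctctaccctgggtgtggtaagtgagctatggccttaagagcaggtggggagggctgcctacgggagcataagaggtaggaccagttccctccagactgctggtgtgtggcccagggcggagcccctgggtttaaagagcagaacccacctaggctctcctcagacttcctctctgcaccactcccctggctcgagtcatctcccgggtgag
The Aqp2 window held all 3 words, with the first and second read on the opposite strand as GACGTCA and TTATCT. The Scnn1g, Scnn1b and Fxyd4 windows held none of them. The full cAMP response element, TGACGTCA, was also searched and was absent from all 4 windows. TGACGTC occurred in 3.21%, AGATAA in 11.2% and AGAACA in 19.0% of 32851 windows of this length. The full element occurred in 1.79% of them. A match is a description of the letters in the window and not of a bound site.

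Levels are counts relative to all panel counts of the class in a library (CPM), scaled by edgeR's TMM method. The panel held 456 genes, so a CPM is a share within that panel and levels are not compared between genes. The authors drew the classes from these cells' own counts, and levels by class are therefore given as a description with no test. Among the 15 classes, Hsd11b2 was highest in CCD principal cells, at 100382 CPM over 6 libraries, against 64331 CPM in the connecting tubule (CNT), the next class. Scnn1b stood at 10908 CPM against 7745 CPM in CNT, and Scnn1g at 9124 CPM against 7821 CPM in CNT, again the next class. These 3 sodium-handling markers set the class apart from the proximal tubule, where each stood below 130 CPM. Their order against CNT holds for shares of panel counts only. S100g alone stood at 399607 CPM in CNT and 2495 CPM in CCD principal cells, which lowers the CPM of every other CNT gene. The order with S100g left out was not tested. Fxyd4 stood at 67867 CPM, below the 96118 CPM of the class named mystery cells. Aqp2 was at 305 CPM, close to the 309 CPM of mystery cells and above the 133 CPM of outer medullary (OMCD) principal cells and the 60.3 CPM of CNT.

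Aqp2 had a count in 231 of 684 furosemide cells and in 158 of 541 vehicle cells. In Proximal s1/s2 cells it had a count in 0 of 1443 furosemide cells and 0 of 1523 vehicle cells, which allows shares of up to 0.208% with furosemide and 0.197% with vehicle by counting error alone. Median counts per Proximal s1/s2 cell were lower than in the class, at 802 to 838 in furosemide libraries and 650.5 to 1027 in vehicle libraries. Of the panel's genes, 25 had their highest share of panel counts in CCD principal cells, 23 of them at 100 CPM or more. The 10 leading genes by fold over the mean of the other classes were Sprr2f, Atp12a, Hsd11b2, Kcne1, Aqp2, Scnn1g, Scnn1b, Fxyd4, Lgals3 and Gdf15. Atp12a encodes the colonic-type proton-potassium pump and Kcne1 a potassium channel subunit. The annotation's second clustering put 1223 of the 1225 cells in its own cluster of the same name and 2 cells, both of furosemide library 2, in a CNT cluster.

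**Figure D1:**
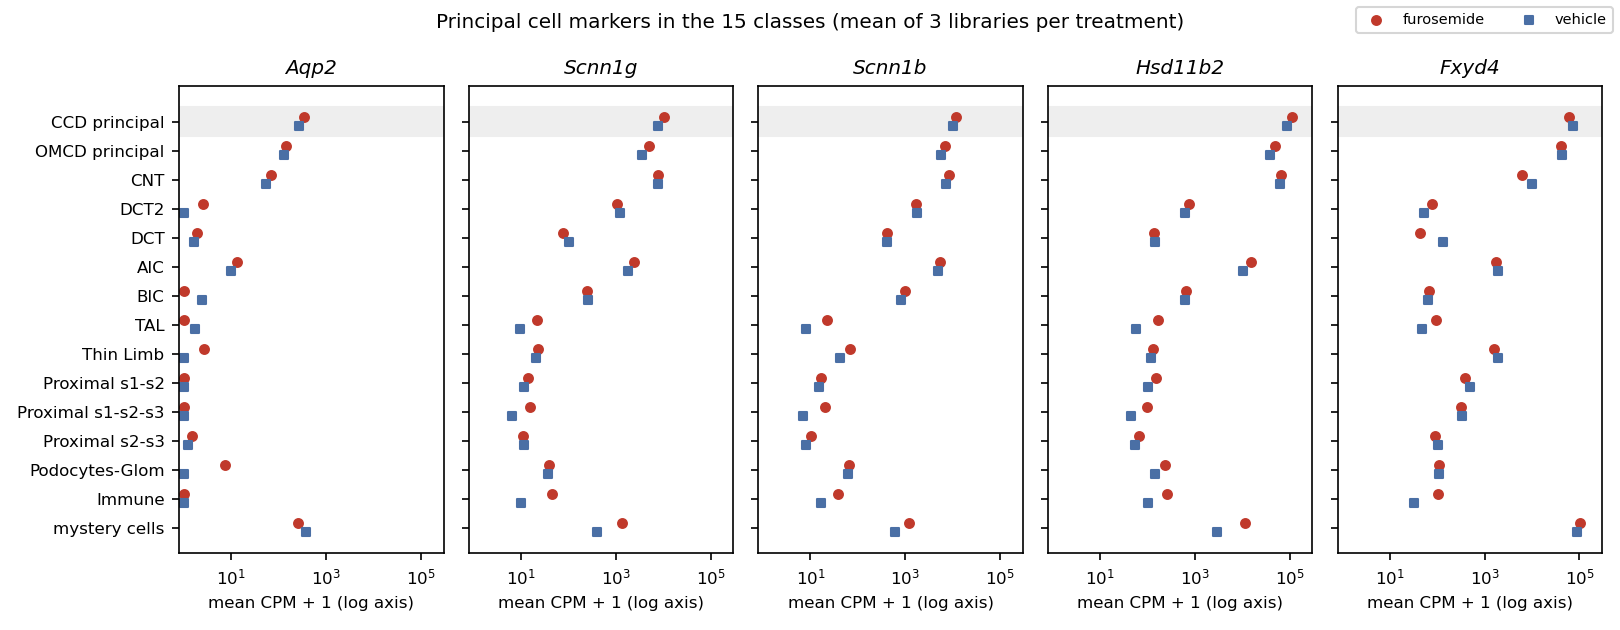
Mean CPM + 1 (log axis) of the 5 markers in each of the 15 classes, 1 point for furosemide and 1 for vehicle (3 libraries each); the shaded row is CCD principal. As shares of panel counts, Hsd11b2, Scnn1b and Scnn1g peak in the shaded row, while Aqp2 and Fxyd4 are as high or higher in mystery cells.

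Depth was similar between treatments. Median counts per cell were 1245, 1305 and 1240 in furosemide libraries 2, 4 and 6, against 1147, 1534 and 1115 in vehicle libraries 1, 3 and 5 (two-sided exact permutation p = 1.0). Summed counts of the class were 192701 to 568823 per furosemide library and 181586 to 340101 per vehicle library. Furosemide library 4 held the most cells and counts. Barcode numbers shared with another library were found in 18 of the class's cells.

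CCD principal cells made up 5.90%, 8.29% and 3.79% of furosemide libraries 2, 4 and 6, and 5.39%, 5.73% and 3.56% of vehicle libraries 1, 3 and 5. The treatments overlapped. The mean share was 5.99% ± 2.25 with furosemide and 4.89% ± 1.17 with vehicle (SD, n = 3), a log2 ratio of 0.29 (two-sided exact permutation p = 0.4; 0.1 is the smallest that 3 against 3 libraries allow). Without furosemide library 4 the log2 ratio was -0.014. Cells were brought to equal numbers per treatment by the authors, so a share depends on the other classes. With thick ascending limb cells left out of the total, the mean share was 6.95% ± 2.76 with furosemide and 6.43% ± 1.60 with vehicle (exact permutation p = 1.0).

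To ask what furosemide did within the class, counts were summed per library and tested gene by gene. Of 281 genes tested, 0 (0.0%) passed edgeR's quasi-likelihood test at an adjusted p under 0.05. At an unadjusted p under 0.05 there were 53 genes, 27 higher (9.61%) and 26 lower (9.25%) with furosemide. All furosemide libraries lay above all vehicle libraries for 35 genes (12.5%) and below them for 31 (11.0%). limma-voom called 0 genes. DESeq2 called 18, of which 7 were higher (2.49%) and 11 lower (3.91%). With every cell thinned to 500 counts, edgeR called 4 of 228 genes (1.75%), with Calb1, Tfrc and Atp4a higher and Hist1h1c lower. The values below are therefore differences with their errors, and none of them passed the main test. Of the genes named below, those outside the 5 markers, the pathway's core genes and the 5 of smallest p in each direction were chosen after their values were seen.

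Apical sodium entry came first. The regulatory subunit Scnn1g stood at 11279, 10816 and 8862 CPM in furosemide libraries 2, 4 and 6, against 8086, 7687 and 8012 CPM in vehicle libraries 1, 3 and 5. Every furosemide library was above every vehicle library, with a log2 fold change of 0.38 ± 0.13 (SE; edgeR adjusted p = 0.208). The companion subunit Scnn1b stood at 11403, 14281 and 9042 CPM in furosemide libraries and 10890, 9883 and 9951 CPM in vehicle libraries, which overlapped (log2 fold change 0.18 ± 0.18, edgeR adjusted p = 0.686). The pore subunit Scnn1a stood at 5286, 9572 and 3402 CPM in furosemide libraries, against 5066, 4358 and 4588 CPM in vehicle libraries. Its excess came from furosemide library 4, and its log2 fold change of 0.39 ± 0.35 became -0.06 without that library. The same held for the water channel Aqp2, at 139.8, 672 and 231 CPM in furosemide libraries and 304, 205 and 276 CPM in vehicle libraries. Its log2 fold change was 0.44 ± 0.55, and -0.45 without furosemide library 4.

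Among the aldosterone pathway's genes, Hsd11b2 and the ubiquitin ligase Nedd4l lay on opposite sides. Hsd11b2 stood at 103085, 129516 and 102403 CPM in furosemide libraries 2, 4 and 6, against 91470, 91536 and 84281 CPM in vehicle libraries 1, 3 and 5. The 3 furosemide libraries were above all vehicle libraries, a log2 fold change of 0.33 ± 0.12 (edgeR adjusted p = 0.223). Nedd4l, which removes ENaC from the membrane, stood at 1666, 1806 and 2027 CPM with furosemide and 2093, 2386 and 2259 CPM with vehicle. Its furosemide libraries were all below the vehicle libraries (log2 fold change -0.29 ± 0.14, edgeR adjusted p = 0.344). The mineralocorticoid receptor Nr3c2 averaged 792 ± 48.4 CPM with furosemide and 705 ± 44.2 CPM with vehicle, and the aldosterone-induced kinase Sgk1 2646 ± 674 CPM with furosemide and 2133 ± 851 CPM with vehicle (SD, n = 3), both overlapping. Of the list of ENaC and aldosterone genes, 12 of 26 were in the panel and 10 were tested. In 3 of the 10 (Scnn1g, Hsd11b2 and the kinase Wnk1) all furosemide libraries were higher and in 1 (Nedd4l) all were lower, beside 12.5% higher and 11.0% lower over all 281 genes. The list's median log2 fold change was 0.32, beside 0.05 over all genes.

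Among ion pump genes, a regulator of the basolateral sodium pump and an apical proton pump went apart. Fxyd4, the regulator, stood at 57887, 64053 and 61236 CPM in furosemide libraries 2, 4 and 6, against 77244, 77248 and 69536 CPM in vehicle libraries 1, 3 and 5. Every furosemide library was the lower one (log2 fold change -0.29 ± 0.10, edgeR adjusted p = 0.208). The beta subunit Atp1b1 averaged 32131 ± 1857 CPM with furosemide and 32303 ± 3571 CPM with vehicle. Atp4a, the alpha subunit of the gastric-type proton-potassium pump, averaged 4466 ± 1289 CPM with furosemide and 2253 ± 416 CPM with vehicle, with no overlap (log2 fold change 0.99 ± 0.25, edgeR adjusted p = 0.101). A count of Atp4a was found in 60.6% ± 4.27 of furosemide cells and 42.3% ± 3.11 of vehicle cells when each was thinned to 500 counts.

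Of the potassium secretion genes, Kcnj1 overlapped between treatments, and the basolateral Kcnj10 and Kcnj16 did not. Kcnj1, the apical secretory channel ROMK, stood at 5476, 7073 and 7200 CPM in furosemide libraries and 5927, 5843 and 6099 CPM in vehicle libraries, which overlapped (log2 fold change 0.14 ± 0.14, edgeR adjusted p = 0.686). The basolateral channel partners Kcnj10 and Kcnj16 had log2 fold changes of 0.41 ± 0.16 and 0.34 ± 0.15, with no overlap between treatments in either. Kcne1 had a log2 fold change of 0.61 ± 0.26, but its lowest furosemide library (508.8 CPM) and its highest vehicle library (508.7 CPM) were all but equal. All 4 tested of 13 listed genes were above 0, with a median of 0.37, where 156 of all 281 genes were above 0, with a median of 0.05.

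**Figure D2:**
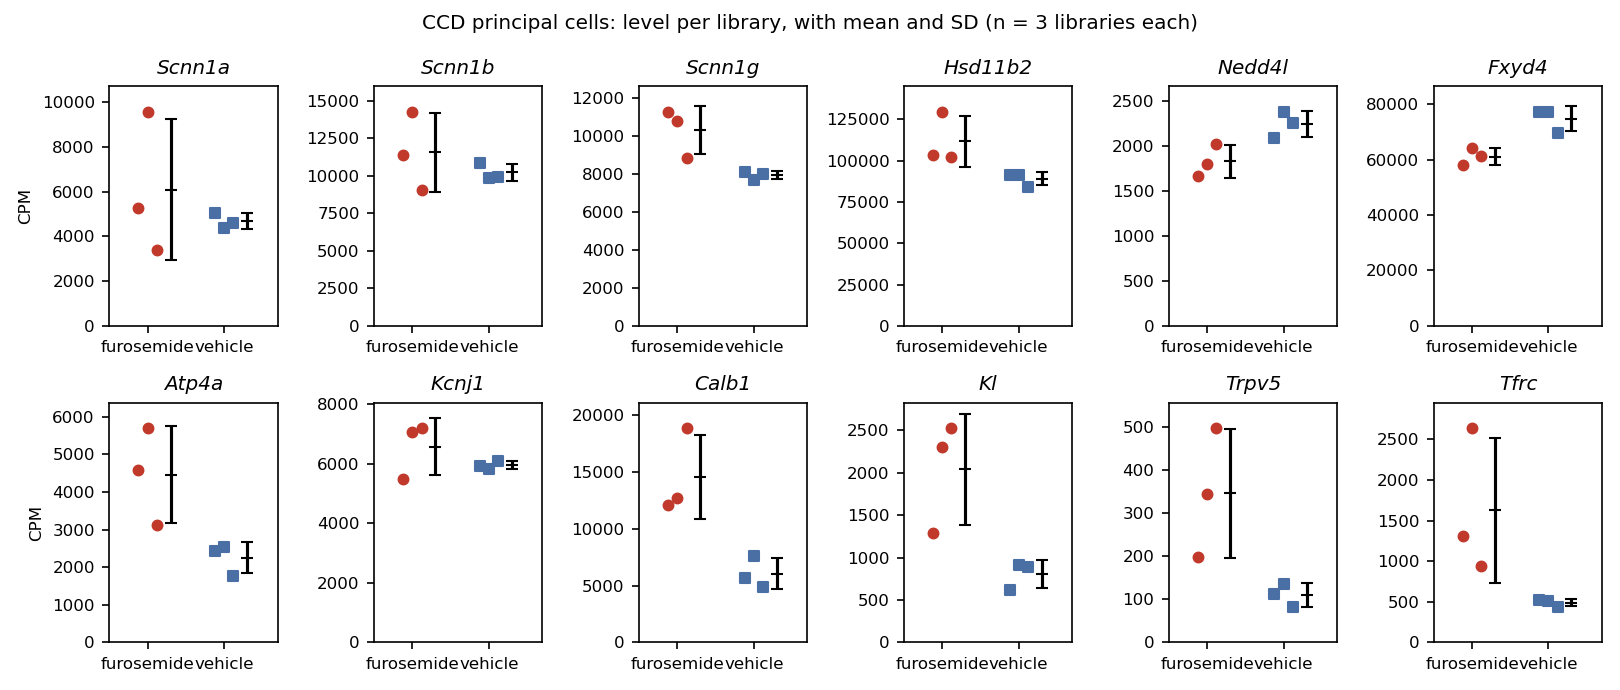
Level in CPM of 12 genes in CCD principal cells, 1 point per library, with the mean and SD beside them (furosemide left, vehicle right, n = 3 each; axes start at 0). Scnn1g, Hsd11b2, Atp4a, Calb1, Kl, Trpv5 and Tfrc do not overlap and are higher with furosemide, while Nedd4l and Fxyd4 are lower; Scnn1a and Tfrc are spread by library 4.

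Among the gene lists with tested members, connecting tubule markers had the largest median difference. Calb1, the calcium-binding protein calbindin, stood at 12099, 12732 and 18859 CPM in furosemide libraries 2, 4 and 6, against 5698, 7574 and 4902 CPM in vehicle libraries 1, 3 and 5. The lowest furosemide library was well above the highest vehicle library, and the log2 fold change was 1.26 ± 0.23 (edgeR adjusted p = 0.0618; DESeq2 adjusted p = 0.000409). Trpv5, the apical calcium channel, stood at 198, 345 and 498 CPM with furosemide and 113, 137 and 81.3 CPM with vehicle (log2 fold change 1.63 ± 0.37, edgeR adjusted p = 0.0937). Kl, the co-receptor klotho, stood at 1293, 2299 and 2525 CPM with furosemide, against 620, 910 and 894 CPM with vehicle (log2 fold change 1.34 ± 0.28, edgeR adjusted p = 0.0937). Neither Trpv5 nor Kl overlapped between treatments. S100g, a second calbindin, overlapped, at 3171 ± 1286 CPM with furosemide and 1820 ± 1234 CPM with vehicle. Not all of these markers were highest in CNT. Mean Calb1 was 30319 CPM in CNT, 76401 CPM in the late distal convoluted tubule (DCT2) and 34681 CPM in the distal convoluted tubule (DCT). Mean Kl was 9998 CPM in CNT, 15248 CPM in DCT2 and 11277 CPM in DCT. Trpv5 and S100g were higher in CNT than in DCT2 and DCT. These are means over 6 libraries. With furosemide, CNT was above DCT for Calb1 (47303 against 43946 CPM) and for Kl (12072 against 11786 CPM). With vehicle, CNT was below DCT for Calb1 (13335 against 25416 CPM) and for Kl (7924 against 10769 CPM). All 4 tested connecting tubule markers were above 0, with a median log2 fold change of 1.30, and 3 of 4 were higher in all furosemide libraries. Over all 281 genes, 156 were above 0 and 12.5% were higher in all furosemide libraries. Summed over the 6 markers in the panel, which Calb1 dominates, the level was 16363 to 26505 CPM in furosemide libraries and 6647 to 11796 CPM in vehicle libraries.

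The Calb1 difference was also described over single cells. In cells thinned to 500 counts, the median count of Calb1 was 4, 3 and 5 in CCD principal cells of furosemide libraries 2, 4 and 6, against 2, 3 and 1 in vehicle libraries 1, 3 and 5. The 90th percentile was 13.2, 16 and 27 with furosemide and 7, 10 and 6.8 with vehicle, so this percentile did not overlap between treatments while the medians met at 3. A count of Calb1 was found in 85.4% ± 6.80 of thinned furosemide cells and 71.8% ± 5.30 of thinned vehicle cells. In thinned Proximal s1/s2 cells, which should lack the gene, it was found in 5.50% ± 1.87 with furosemide and 2.15% ± 0.786 with vehicle. Before thinning, the CCD principal shares were 91.8% ± 5.02 with furosemide and 82.3% ± 4.87 with vehicle. Trpv5 had a count in 13.4% ± 5.96 of thinned furosemide cells and 4.83% ± 2.23 of thinned vehicle cells (before thinning, 22.5% ± 8.92 with furosemide and 9.43% ± 1.99 with vehicle). In thinned Proximal s1/s2 cells it had one in 0.281% ± 0.280 with furosemide and in 0 of 1179 cells with vehicle, which allows up to 0.254%. Kl had a count in 40.4% ± 7.44 of thinned furosemide cells and 30.6% ± 9.48 of thinned vehicle cells of the class. Thinned Proximal s1/s2 cells had a larger share, 80.6% ± 8.18 with furosemide and 88.9% ± 1.65 with vehicle. What free RNA adds to its level here was not tested.

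Cells with a count of at least 3 of the 5 markers Calb1, Trpv5, S100g, Slc8a1 and Kl made up 38.9%, 33.7% and 57.4% of the class in furosemide libraries 2, 4 and 6, against 19.5%, 31.6% and 29.0% in vehicle libraries 1, 3 and 5. Libraries did not overlap, and the means were 43.3% ± 12.4 with furosemide and 26.7% ± 6.34 with vehicle (two-sided exact permutation p = 0.1, the smallest possible). In thinned cells the shares were 19.3% ± 3.55 with furosemide and 8.65% ± 2.62 with vehicle. This share was chosen after the gene values had been seen. It counts Calb1 and Kl, whose mean levels were higher in DCT2 than in CNT with either treatment, so it is not specific to CNT. Whether the class border between CNT and CCD principal moved with treatment was not tested. Of the second clustering's 1230 CCD principal cells, 7 were CNT in the broad classes.

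Another of the higher genes serves iron uptake. Tfrc, the transferrin receptor, stood at 1305, 2639 and 939 CPM in furosemide libraries 2, 4 and 6, and at 519, 515 and 439 CPM in vehicle libraries 1, 3 and 5. Each furosemide library was above each vehicle library, and library 4 was the highest (log2 fold change 1.73 ± 0.37, edgeR adjusted p = 0.0937; without library 6 the gene passed). The share of thinned CCD principal cells with a Tfrc count was 40.8%, 65.7% and 31.6% with furosemide, against 19.9%, 18.9% and 17.9% with vehicle. In Proximal s1/s2 cells the thinned share was 27.8% ± 8.33 with furosemide and 19.8% ± 4.06 with vehicle. The vehicle shares of CCD principal cells thus sat at the proximal level, while those of furosemide libraries 2 and 4 were above the highest proximal share, 35.0%. Pdk1, a kinase that restrains pyruvate oxidation, averaged 183 ± 24.8 CPM with furosemide and 88.5 ± 20.7 CPM with vehicle, without overlap (log2 fold change 1.04 ± 0.28, edgeR adjusted p = 0.1099).

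Plat, tissue plasminogen activator, had the smallest p but rested on few counts. It stood at 85.4, 179 and 82.1 CPM in furosemide libraries 2, 4 and 6, against 15.6, 2.97 and 5.42 CPM in vehicle libraries 1, 3 and 5 (log2 fold change 3.77 ± 0.62, edgeR adjusted p = 0.0618). The furosemide cells held 134 counts in 15 of 684 cells, and 61 of these counts (45.5%) came from 1 cell. The vehicle cells held 7 counts in 6 of 541 cells. Cd8a was likewise higher in every furosemide library (79.8 ± 39.5 CPM against 23.7 ± 6.85 CPM with vehicle), and 1 cell held 37.6% of its furosemide counts. The summed level of 8 immune markers was 144 to 792 CPM in furosemide libraries and 200 to 806 CPM in vehicle libraries, which overlapped.

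**Figure D3:**
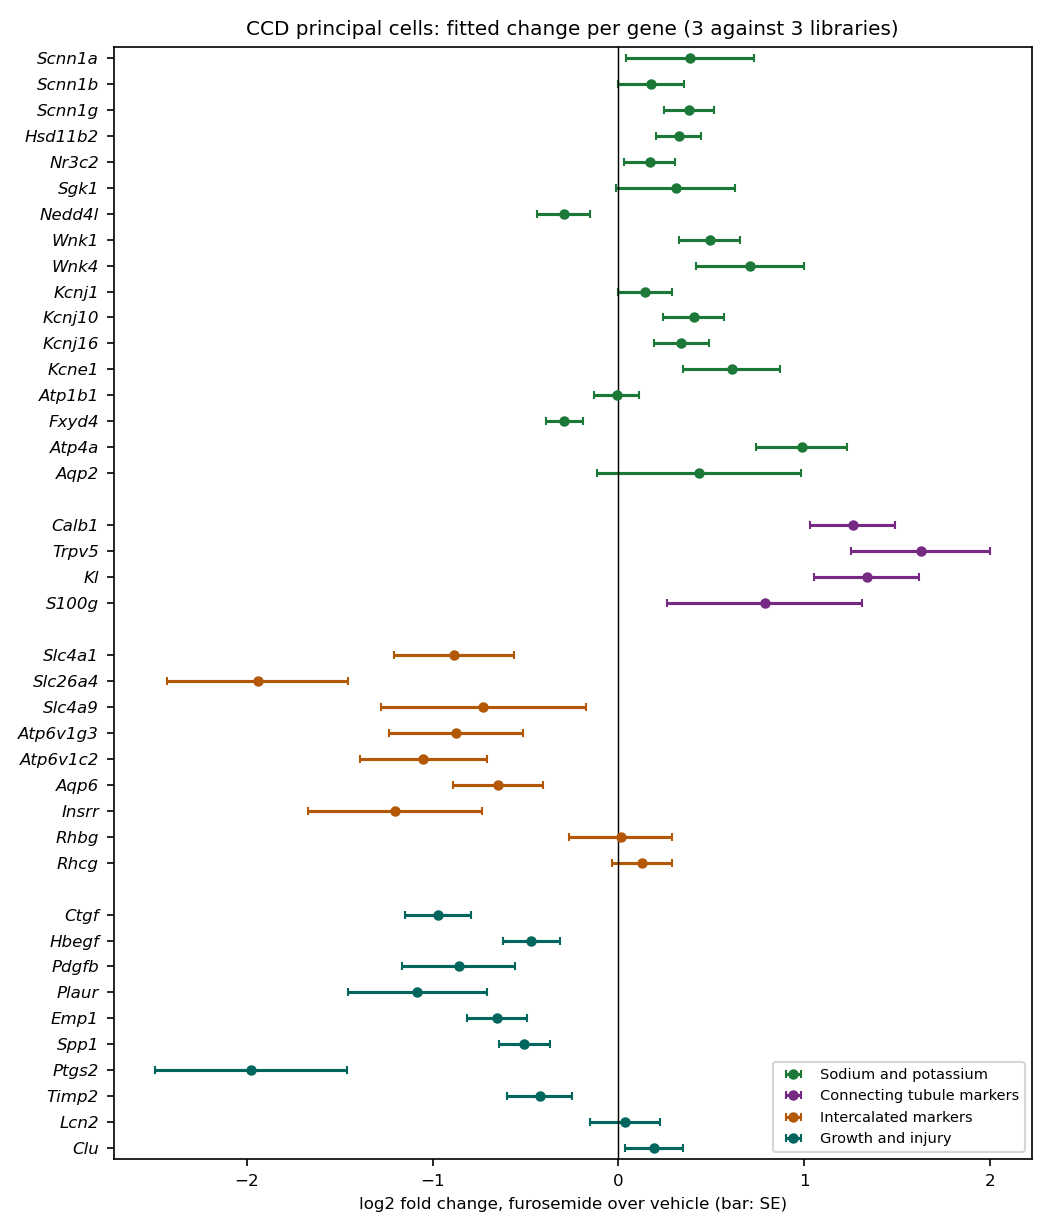
Log2 fold change of furosemide over vehicle with its SE for 40 genes in CCD principal cells, from edgeR's fit on 3 against 3 libraries. Connecting tubule markers lie right of 0, 7 of 9 intercalated markers lie left, and Ctgf (-0.97), Emp1 (-0.66) and Spp1 (-0.51) lie left with small errors.

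Several genes that were lower with furosemide belong to the lists of growth factors, injury and matrix proteins. Ctgf, a matricellular protein induced by stretch and TGF-beta, stood at 334, 457 and 411 CPM in furosemide libraries 2, 4 and 6, against 807, 687 and 872 CPM in vehicle libraries 1, 3 and 5. All furosemide libraries were lower, by a wide gap (log2 fold change -0.97 ± 0.18, edgeR adjusted p = 0.0618). Emp1, an epithelial membrane protein, averaged 19597 ± 3466 CPM with furosemide and 30843 ± 3448 CPM with vehicle (log2 fold change -0.66 ± 0.16, edgeR adjusted p = 0.101). Slc2a1, the basolateral glucose transporter GLUT1, stood at 10914, 10248 and 12824 CPM with furosemide and 15433, 19281 and 17312 CPM with vehicle (log2 fold change -0.62 ± 0.14, edgeR adjusted p = 0.0937). Neither Emp1 nor Slc2a1 overlapped. Spp1, the secreted phosphoprotein osteopontin, averaged 15672 ± 1383 CPM with furosemide and 22285 ± 2820 CPM with vehicle (log2 fold change -0.51 ± 0.14, edgeR adjusted p = 0.1099).

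In the list of growth factor genes, 11 of 31 were tested, and in 5 of them (Hbegf, Pdgfb, Ctgf, Bmp7 and Smad3) all furosemide libraries were below all vehicle libraries and in 0 above. Over all genes, 11.0% were so below and 12.5% above. The list's median log2 fold change was -0.34, beside 0.05 over all genes. Hbegf, a ligand of the EGF receptor, averaged 10381 ± 1737 CPM with furosemide and 14351 ± 1107 CPM with vehicle. Of 9 tested injury genes, 3 (Spp1, Timp2 and Vim) were lower in all furosemide libraries (11.0% over all genes), and the median was -0.42. Lcn2, a tubular injury marker, averaged 5912 ± 164 CPM with furosemide and 5773 ± 1523 CPM with vehicle, and Clu 23589 ± 3629 CPM with furosemide and 20648 ± 2754 CPM with vehicle, both overlapping. Vim had a log2 fold change of -3.17 ± 0.75, with 14 counts in 11 furosemide cells and 90 counts in 13 vehicle cells, of which 1 cell held 52.2%. Ptgs2, the inducible cyclooxygenase, averaged 109 ± 81.2 CPM with furosemide and 410 ± 75.8 CPM with vehicle (log2 fold change -1.98 ± 0.52, edgeR adjusted p = 0.1099). It had counts in 31 of 684 furosemide cells and 45 of 541 vehicle cells. The linker histone Hist1h1c averaged 4584 ± 1294 CPM with furosemide and 7458 ± 912 CPM with vehicle, without overlap.

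Markers of intercalated cells were mostly lower with furosemide. Slc4a1, the anion exchanger of type A cells, stood at 276, 129 and 303 CPM in furosemide libraries 2, 4 and 6, against 413, 390 and 488 CPM in vehicle libraries 1, 3 and 5 (log2 fold change -0.88 ± 0.32, edgeR adjusted p = 0.218). Aqp6, a water channel of the same cells, averaged 339 ± 100.4 CPM with furosemide and 527 ± 45.3 CPM with vehicle. The furosemide libraries were below the vehicle libraries in both. Of 9 tested markers 7 were below 0 and 4 were lower in all furosemide libraries, with a median log2 fold change of -0.87. Over all 281 genes, 125 were below 0 and 11.0% were lower in all furosemide libraries. The ammonia channels Rhbg and Rhcg, which principal cells also express, were at 0.01 ± 0.28 and 0.13 ± 0.16. Summed over the 9 markers, which these 2 dominate, the level was 24499 to 33119 CPM in furosemide libraries and 28341 to 30333 CPM in vehicle libraries.

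Cells with counts of at least 2 of Slc4a1, Slc26a4, Slc4a9, Atp6v1g3 and Aqp6 made up 8.89%, 6.79% and 5.88% of the class in furosemide libraries 2, 4 and 6, and 10.5%, 14.7% and 13.0% in vehicle libraries 1, 3 and 5. The treatments did not overlap, with means of 7.19% ± 1.54 with furosemide and 12.7% ± 2.15 with vehicle (two-sided exact permutation p = 0.1). In thinned cells the shares were 5.37% ± 1.28 with furosemide and 9.86% ± 0.792 with vehicle. Slc4a1 had a count in 4.48% ± 1.69 of thinned furosemide cells and 8.40% ± 0.973 of thinned vehicle cells (before thinning, 6.59% ± 2.97 with furosemide and 11.2% ± 0.763 with vehicle). In thinned Proximal s1/s2 cells the shares were 0.439% ± 0.197 with furosemide and 0.417% ± 0.111 with vehicle. Slc26a4, the exchanger pendrin of type B cells, stood at 48.4 ± 33.7 CPM with furosemide and 202 ± 58.2 CPM with vehicle, but thinned shares of cells with a count were 2.08% ± 0.656 with furosemide and 3.90% ± 1.56 with vehicle, beside 2.60% ± 0.721 with furosemide and 2.91% ± 0.833 with vehicle in Proximal s1/s2 cells, and 1 cell held 40.0% of its vehicle counts. Without the cells that had at least 2 of the 5 markers, a choice made after seeing the data, edgeR called Ctgf, Plat and Ptgs2. The part of doublets or of mixed cells in these counts was not tested.

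Slc12a1, the cotransporter that furosemide blocks, is a thick ascending limb gene and stood at only 85.4, 76.6 and 97.5 CPM in furosemide libraries, against 150.2, 247 and 363 CPM in vehicle libraries (log2 fold change -1.55 ± 0.36, edgeR adjusted p = 0.0937). In thinned CCD principal cells a count was found in 4.66% ± 2.28 with furosemide and 9.72% ± 1.44 with vehicle, and in thinned Proximal s1/s2 cells in 6.09% ± 0.842 with furosemide and 8.84% ± 2.12 with vehicle. These shares sit at the background level and are not read as expression. Of 7 tested thick ascending limb markers, 1 was higher in all furosemide libraries and 2 were lower, with a median of -0.08, beside 12.5% higher and 11.0% lower over all genes. Of 11 tested proximal tubule markers, 2 were higher in all furosemide libraries and 0 lower, against the same shares over all genes. The 19 in the panel summed to 2607 to 4144 CPM in furosemide libraries and 3195 to 3461 CPM in vehicle libraries. Of 10 glomerular and endothelial markers in the panel, 0 passed the filter on low counts.

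Division markers were rare. Birc5 and Mki67 were both counted in 7 furosemide cells and 3 vehicle cells, or 0.823% ± 0.724 of the class with furosemide and 0.478% ± 0.456 with vehicle (two-sided exact permutation p = 0.6). Furosemide library 6 held 0 such cells of 136 and vehicle library 5 held 0 of 131, which allow shares of up to 2.21% and 2.29%. In thinned cells there were 5 with furosemide and 1 with vehicle (exact permutation p = 0.4). Ccnd1, the cyclin of the first growth phase, averaged 3525 ± 537 CPM with furosemide and 4041 ± 411 CPM with vehicle. Cdkn1a, a cell cycle inhibitor, averaged 838 ± 249 CPM with furosemide and 992 ± 406 CPM with vehicle, and Igf1r, a growth factor receptor, 97.9 ± 27.2 CPM with furosemide and 113 ± 23.3 CPM with vehicle. All 3 overlapped. Of the immediate early genes, which dissociation can induce, 6 were tested, and 1 of them, Fos, was higher in all furosemide libraries (31919 ± 2985 CPM against 23276 ± 4472 CPM with vehicle). Over all 281 genes, 12.5% were higher in all furosemide libraries. The median log2 fold change of these 6 genes was 0.01, beside 0.05 over all genes.

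Cells of the class also differed among themselves within each library. Spearman correlations with Calb1 were computed over cells thinned to 500 counts, for 64 genes with a mean count of at least 1 per thinned cell, and averaged over the 6 libraries. They are given as a description, since the cells of a library share its depth and the counts of a cell compete for a fixed total. Rhbg (0.48), Atp4a (0.46), Clu (0.40), Scnn1b (0.40) and Kcnj10 (0.38) had a mean rho above 0.3. Fxyd4 (-0.51), Hist1h1c (-0.44) and Lcn2 (-0.42) were below -0.3. Fxyd4 was negative in every library, at -0.59 to -0.41. The genes were not a list fixed by function, and others of like roles lay lower, with Rhcg at 0.12, Kcnj1 at 0.11 and Atp1b1 at 0.0039. The treatment differences of these 8 genes were set beside their rho. All 5 genes above had a log2 fold change above 0 and 2 of the 3 genes below had one under 0, while 35 of all 64 were above 0. Rhbg (0.01) and Lcn2 (0.04) were close to 0 and turned sign under other settings.

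**Figure D4:**
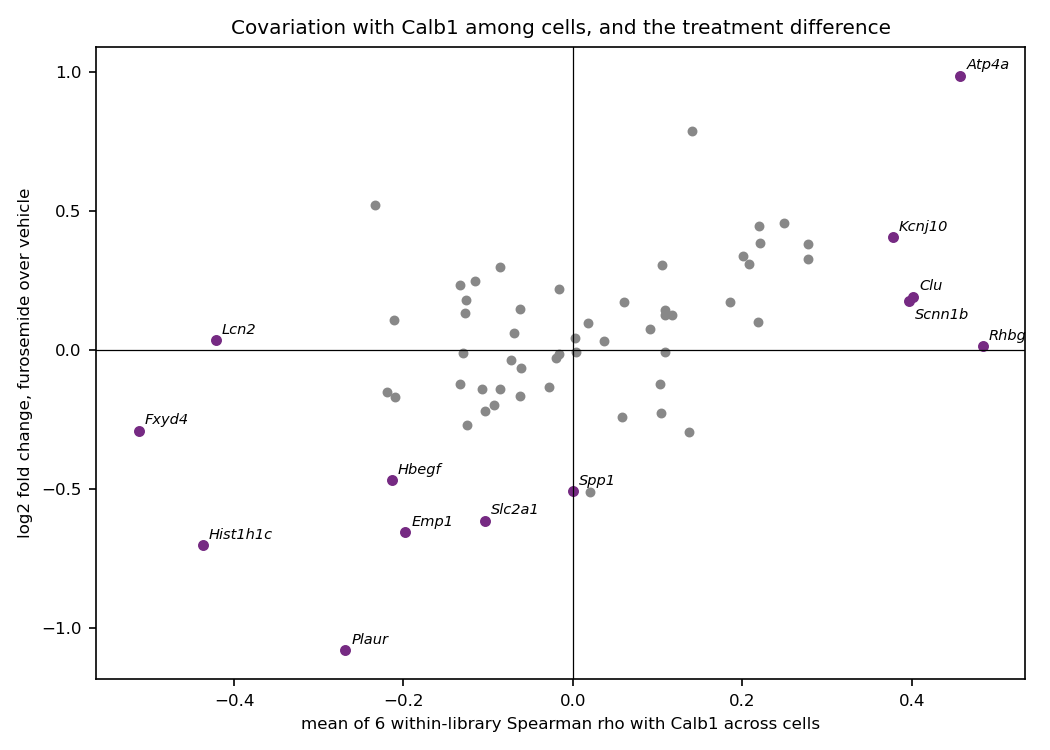
Mean within-library Spearman rho with Calb1 across thinned cells (x axis, 64 genes) against the log2 fold change of furosemide over vehicle (y axis); purple points are named. Atp4a and Kcnj10 lie upper right and Fxyd4 and Hist1h1c lower left, while Rhbg and Lcn2 lie near 0 on the y axis.

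The treatment differences were then set beside those of neighbouring classes. Treatment by class terms were fitted with the library as a block, against CNT, against the late distal convoluted tubule (DCT2) and against type A intercalated cells (AIC), which held 1116, 485 and 340 cells in that order. Against CNT, 0 of 295 genes passed (0.0%), with 38 at an unadjusted p under 0.05. The 2 with the smallest p were Spp1 (-1.01 ± 0.16) and Calb1 (-0.68 ± 0.11), both at an edgeR adjusted p of 0.0536. Calb1 averaged 47303 ± 11397 CPM in furosemide CNT sums and 13335 ± 4704 CPM in vehicle CNT sums, with a log2 fold change of 1.82 ± 0.27, so both classes were higher with furosemide. Spp1 averaged 40397 ± 740.3 CPM in furosemide CNT sums and 30630 ± 6066 CPM in vehicle CNT sums, the side opposite to that in CCD principal cells. In CNT sums alone edgeR called 13 of 256 genes, Fxyd4 and Nedd4l among them. Both were lower with furosemide there, at -0.70 ± 0.15 and -0.61 ± 0.13 (edgeR adjusted p = 0.0389 for each). Scnn1g and Hsd11b2 were at 0.05 ± 0.12 and 0.08 ± 0.15 in CNT and were called in neither class. Their terms against CNT were 0.24 ± 0.15 (edgeR adjusted p = 0.477) and 0.16 ± 0.12 (edgeR adjusted p = 0.584). These terms show no difference between the 2 classes. In AIC sums the 2 genes were at 0.48 ± 0.33 and 0.57 ± 0.40. Against AIC, 0 of 280 genes passed (0.0%), with 23 at an unadjusted p under 0.05. No term was fitted against OMCD principal cells. There Calb1 averaged 5138 ± 1274 CPM with furosemide and 2544 ± 749 CPM with vehicle, and Scnn1g 5068 ± 707 and 3550 ± 615 CPM. Atp4a averaged 2974 ± 328 CPM with furosemide and 1464 ± 429 CPM with vehicle in OMCD principal cells. In CNT it averaged 4365 ± 374 and 4378 ± 313 CPM, and in DCT 2510 ± 255 and 3552 ± 170 CPM.

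Against DCT2, 5 of 284 genes passed (1.76%). The treatment effect was above that of DCT2 for Calb1 (1.30 ± 0.21), Kl (1.76 ± 0.29) and Id3 (1.07 ± 0.17), an inhibitor of DNA binding, and below it for Ckb (-1.31 ± 0.20), a creatine kinase, and Hmox1 (-1.67 ± 0.27), the inducible heme oxygenase, each at an edgeR adjusted p of 0.0136. Calb1 averaged 77283 ± 9556 CPM in furosemide DCT2 sums and 75519 ± 9363 CPM in vehicle DCT2 sums, which overlapped. Ckb averaged 326 ± 52.3 CPM with furosemide and 223 ± 21.4 CPM with vehicle in CCD principal cells, beside 4303 ± 1023 CPM with furosemide and 1119 ± 54.7 CPM with vehicle in DCT2. Hmox1 averaged 5503 ± 1646 CPM with furosemide and 5534 ± 2391 CPM with vehicle in CCD principal cells, beside 896 ± 365 CPM with furosemide and 259.9 ± 94.9 CPM with vehicle in DCT2. Kl averaged 13241 ± 1338 CPM in furosemide DCT2 sums and 17255 ± 3374 CPM in vehicle DCT2 sums, and Id3 1237 ± 282 CPM in furosemide DCT2 sums and 2077 ± 219 CPM in vehicle DCT2 sums. For Tfrc the term was -0.07 ± 0.57, and its difference was 1.75 ± 0.24 in DCT2. The DCT2 counts of calls depended on the libraries used: without furosemide library 6, vehicle library 1 or vehicle library 5, 0 genes passed. Without vehicle library 3 only Hmox1 passed, and without furosemide library 4 Hmox1 and Lyz2 did. With RLE size factors, which moved the median term over all genes from 0.10 to -0.10, and in thinned cells, only Ckb and Hmox1 passed.

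**Figure D5:**
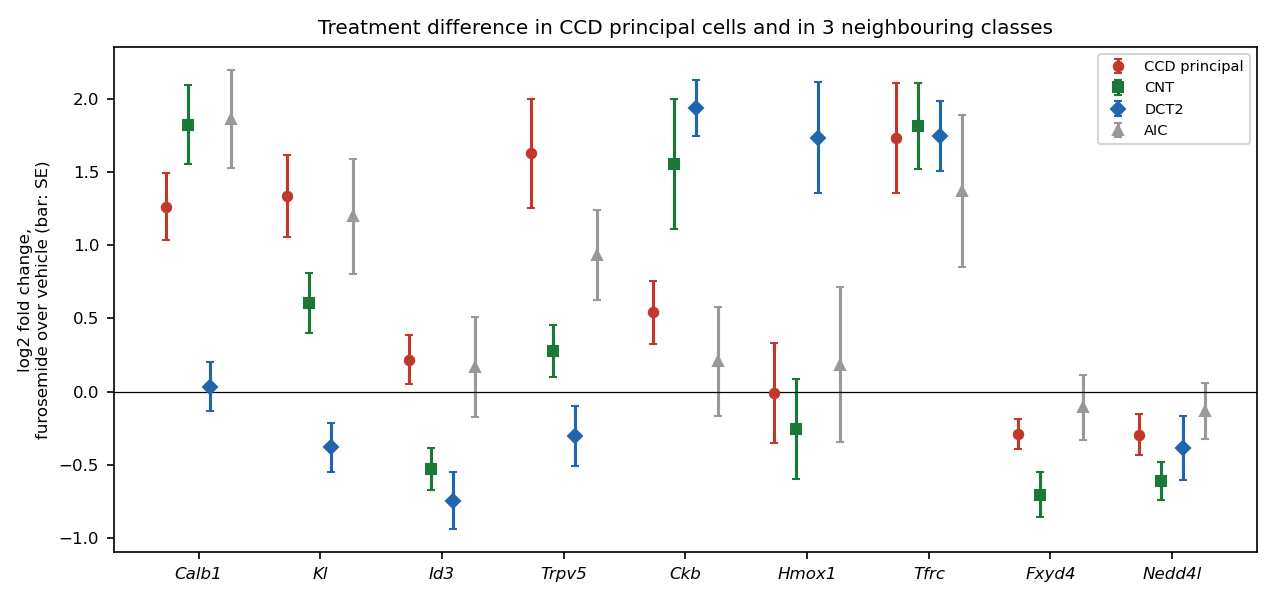
Log2 fold change of furosemide over vehicle with its SE in CCD principal, CNT, DCT2 and AIC sums for 9 genes; a class has no point where the gene did not pass its filter on low counts. Calb1 is above 0 in CCD principal, CNT and AIC but at 0.03 in DCT2, and Tfrc is above 1 in all 4 classes.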

How the data were processed

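Single-cell messenger RNA was captured on BD Rhapsody beads from dissociated kidneys of 3 furosemide and 3 vehicle samples. Bowtie2 2.2.9 was used, per the submitters' processing notes. Neither the genome build nor the counting step is given in the sources used here. The authors deposited whole-number counts per cell for 456 panel genes, after removing doublets and equalising cell numbers per treatment, per the file headers and names, and a table of other values per cell (class, library number, treatment). No source says whether counts are molecules or reads. Library numbers could not be joined to the sample titles.

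Counts of CCD principal cells were summed per library and fitted with edgeR 4.0.16 in R 4.3.3 (TMM, filterByExpr, robust glmQLFit and glmQLFTest), with p-values adjusted by Benjamini-Hochberg over all genes tested and a threshold of 0.05. Log2 fold changes are furosemide over vehicle. DESeq2 1.42.0, limma-voom (limma 3.58.1), other scalings, thinned cells and leaving out each library were alternatives. Thinning drew 500 counts per cell with seed 11 and left out 28 shallower cells (11 furosemide, 17 vehicle). Shares were compared by two-sided exact permutation, which cannot go below 0.1. The fits were tested on simulated data. The members, gene lists and core genes were chosen with earlier results of these data known, and support no direction on their own. Named were the 5 markers, per direction the 5 genes of smallest p, the core genes and the called genes of each interaction. Any other gene was chosen after its values were seen. Shares of cells cover cells with a count, not cells expressing a gene. Some genes are not reported here, and were left out of the counts of named genes and of genes correlated with Calb1.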

Additional observations from a re-analysis of the deposited data

Results flagged for a closer look

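For 5 genes the furosemide effect in CCD principal cells differed from that in DCT2 cells by edgeR's test of the class by treatment term (edgeR adjusted p = 0.0136 for each). The difference was 1.30 for Calb1, 1.07 for Id3 and 1.76 for Kl, where the effect was higher in CCD principal cells. It was -1.31 for Ckb and -1.67 for Hmox1, where it was lower. All 5 rest on DCT2 sums of 485 cells in 6 libraries.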

How the results depend on the processing

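The 0 genes called by edgeR became 18 with DESeq2, 4 in thinned cells, 1 with no filter on low counts, 3 without the cells in the top 5% of totals, and 3 without cells with intercalated markers (an alternative chosen after seeing the data). They stayed 0 with other scalings, equal cell numbers, limma-voom and the second clustering. Leaving out 1 library gave 0 to 3 calls, the 3 (Hist1h1c, Ptgs2 and Tfrc) without furosemide library 6. The CNT term gave 2 calls in thinned cells and 0 to 7 with a library left out, the 7 without vehicle library 3. The DCT2 term gave 2 calls with RLE size factors, where Calb1, Kl and Id3 no longer passed, 2 in thinned cells, 8 with no filter, and 0 to 5 with a library left out. RLE also moved the median DCT2 term over all genes to -0.10, against 0.10 with TMM. The AIC term gave 0 calls throughout. With a library left out, the log2 ratio of the class's share ranged between -0.014 and 0.54, the difference in median counts between -77.17 and 132.3, and the difference in the share of the second clustering between -0.5555 and 0 percentage points.

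Of 58 named genes tested, 50 kept their direction under all alternatives. Many were named for a small p or after their values were seen, which favours a kept direction. The count was not taken over all genes tested. With a library left out, log2 fold changes ranged from -0.45 to 0.78 for Aqp2, -0.0617 to 0.63 for Scnn1a, -0.47 to 0.11 for Cdkn1a, -0.12 to 0.0806 for Atp1b1, -0.18 to 0.38 for Hmox1, -0.23 to 0.21 for Rhbg and -0.0995 to 0.28 for Lcn2. In thinned cells, Atp1b1 turned to 0.0106, Hmox1 to 0.046, Rhbg to -0.0275 and Lcn2 to -0.0321. With voom, Atp1b1 turned to 0.0044 and Hmox1 to 0.0324. Without the top 5% of cells, Atp1b1 turned to 0.0168 and Hmox1 to 0.0527. Hmox1 also turned to 0.0019 in the second clustering and 0.0414 without cells with intercalated markers. Rhbg turned to -0.0145 with DESeq2, -0.0152 with RLE, -0.0227 by library size and -0.0149 unfiltered, and Lcn2 to -0.0074 by library size and -0.0047 unfiltered. Atp6v1g3 turned to 0.27 without cells with intercalated markers, of which it is one. The cause of the other turns was not tested. No paired analysis was possible because library numbers could not be joined to the replicate numbers of the titles.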
